A study of Mus musculus with 6 samples.

Results

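The autophagy and lysosome genes described here are 39 mouse genes listed by name for their part in forming autophagosomes or in the lysosome. For each gene, the count matrix of the study was searched for regions within 1 kb of either end of the gene in the RefSeq annotation of GRCm38.p6, the assembly of mm10, and where a gene had several such regions the one with the highest mean count was its main region. A main region was found for 37 of the 39 genes, out of 8737 gene-end main regions tested in the whole series and 24316 regions tested in all. Pik3c3 and Atg7 had no region near either end and are described by their inner regions only. The 3 palmitate libraries came from wild-type mouse CD8+ T cells kept for 48 hours in complete T cell medium with 100 µM palmitate, and the 3 control libraries from cells labelled as control. The treatment text in the labels is the same for both groups and names no vehicle for the controls. Per the labels, the cells were taken from pancreas, spleen and lymph nodes, and 50000 cells purified by FACS entered each library. In ATAC-seq the Tn5 transposase cuts open DNA, so the read count of a region measures how accessible its chromatin is, not how much RNA or protein the gene makes. Separate mice or cultures are not named for the numbered replicates, and the p-values here reflect library-to-library spread that may be technical only.

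In autophagy, a kinase complex built around ULK1 and a class III phosphatidylinositol 3-kinase complex built around VPS34 start a membrane that conjugation enzymes coat with lipid-linked LC3 and GABARAP proteins. The membrane closes around cargo and fuses with lysosomes, where a proton pump, the V-ATPase, keeps the lumen acidic for hydrolases such as the cathepsins. The transcription factors TFEB and TFE3 bind the sequence CACGTG in promoters of lysosome genes, and in CD8+ T cells autophagy is known for its part in the survival of memory cells.

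Start windows of 280 bases, running from 250 bases before the start given by RefSeq (GRCm38.p6) to 30 bases after it, are printed here for 5 members whose main region lies over them. The first 4 belong to lysosomal genes and are shown for the CACGTG letters, in capitals, that TFEB and TFE3 are known to bind. The Lamp1 window (chr8:13158911-13159190, + strand) holds CACGTG 4 times, with first bases at -61, -45, -28 and -15 from the start, and the Mcoln1 window (chr8:3500269-3500548, + strand) holds it at -71 and -45. The Ctsd window (chr7:142387798-142388077, - strand) holds it at -245 and -98, and the Atp6v0d1 window (chr8:105566035-105566314, - strand) at -3. The fifth is that of Atg101 (chr15:101284051-101284330, + strand), the member with the highest fold change, and its capitals at -26 are the ETS-type letters CCGGAAGT read on the other strand.
Lamp1: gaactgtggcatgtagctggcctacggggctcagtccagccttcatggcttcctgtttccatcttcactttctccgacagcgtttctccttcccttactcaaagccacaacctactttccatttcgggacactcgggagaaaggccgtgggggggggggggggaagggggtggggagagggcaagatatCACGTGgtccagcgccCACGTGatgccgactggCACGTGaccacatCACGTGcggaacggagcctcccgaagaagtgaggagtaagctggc
Mcoln1: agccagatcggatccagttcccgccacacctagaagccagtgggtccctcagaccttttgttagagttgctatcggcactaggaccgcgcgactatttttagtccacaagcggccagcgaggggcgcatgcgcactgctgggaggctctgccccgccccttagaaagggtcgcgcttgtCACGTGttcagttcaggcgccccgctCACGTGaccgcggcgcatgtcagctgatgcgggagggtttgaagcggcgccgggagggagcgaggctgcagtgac
Ctsd: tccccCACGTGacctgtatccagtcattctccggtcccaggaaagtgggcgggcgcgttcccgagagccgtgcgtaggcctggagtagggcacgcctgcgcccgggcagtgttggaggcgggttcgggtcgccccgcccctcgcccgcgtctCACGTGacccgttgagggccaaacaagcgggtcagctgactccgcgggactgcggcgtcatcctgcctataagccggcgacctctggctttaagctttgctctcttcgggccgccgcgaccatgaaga
Atp6v0d1: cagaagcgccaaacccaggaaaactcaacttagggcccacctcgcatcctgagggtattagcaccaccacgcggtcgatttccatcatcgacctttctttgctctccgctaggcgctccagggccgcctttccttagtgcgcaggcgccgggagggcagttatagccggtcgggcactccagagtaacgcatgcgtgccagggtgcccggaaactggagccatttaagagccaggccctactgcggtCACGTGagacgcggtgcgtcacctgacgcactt
Atg101: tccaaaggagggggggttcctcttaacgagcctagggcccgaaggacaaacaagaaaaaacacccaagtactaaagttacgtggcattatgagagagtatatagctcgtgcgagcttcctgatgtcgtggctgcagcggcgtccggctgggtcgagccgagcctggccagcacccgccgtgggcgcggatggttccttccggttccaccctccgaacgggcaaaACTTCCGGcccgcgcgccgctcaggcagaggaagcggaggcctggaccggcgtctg

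Counts in regions totalled 2614890 to 3089230 in the palmitate libraries and 2219136 to 2855574 in the control libraries. Values are given as CPM, read counts scaled to a common library size, with library sizes adjusted by TMM, a method that takes most regions as unchanged. Control 2 stood apart from the other controls: a chi-square of counts divided by its degrees of freedom was 2.03 and 2.05 against them, 1.2 between the other controls, 1.19 to 1.48 among palmitate libraries and 3.0 to 4.41 between groups. All 6 markers of CD8+ T cells (Cd8a, Cd8b1, Cd3d, Cd3e, Cd3g and Thy1) had a gene-end region, with sums of 274 to 327 CPM in palmitate libraries and 290 to 314 CPM in controls, and of these Thy1 was lower with palmitate (log2 fold change -0.55, edgeR adjusted p = 0.0108). No such region was found for Cd4 and Foxp3 (CD4+ T cells), Cd79a, Ms4a1 and Pax5 (B cells), Ncr1 and Klrb1c (NK cells) or Prss2, Cpa1 and Ins2 (pancreatic cells). Of 6 myeloid markers, Itgam and Spi1 had one and Csf1r, Lyz2, Cd14 and Adgre1 had none. The sum of Itgam and Spi1 was 24.0, 20 and 24.5 CPM in palmitate libraries, against 12.6, 16.3 and 20.4 CPM in controls, and Itgam was higher with palmitate (log2 fold change 0.91, edgeR adjusted p = 0.0151). Spi1 had 11.0, 10.2 and 11.5 CPM in palmitate libraries and 6.1, 11.0 and 13.3 CPM in controls (log2 fold change 0.08, edgeR adjusted p = 0.866), with overlapping groups. Lysosome genes are expressed strongly in myeloid cells, and the part of such cells in the results below was not tested.

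Chromatin at the ends of 13 of the 37 genes was more accessible with palmitate, and at none was it less accessible (edgeR quasi-likelihood test, Benjamini-Hochberg adjusted p below 0.05 over all 24316 regions). Among all 8737 gene-end main regions, 26.4% were higher and 1.92% lower by the same rule, against 35.1% of the members higher. The called members were Atg101, Npc2, Gabarap, Rb1cc1, Atg4b, Ulk1, Tfe3, Npc1, Atg2a, Atp6v0d1, Wipi2, Atg10 and Map1lc3b. Their changes were small, between 1.17-fold and 1.35-fold. In all 13 the 3 palmitate values lay above the 3 control values. The calls were made on these same values, so this is not separate support for them. Over the 37 members the log2 fold change of palmitate over control ranged from -0.29 (Gabarapl1) to 0.43 (Atg101), with a median of 0.22, against a median of 0.15 over gene ends and -0.05 over all regions, of which 11.9% were higher and 12.7% lower. The difference was positive in 30 members and negative in 7, and over the 8737 gene ends positive in 6436 and negative in 2301. The palmitate libraries were all above the controls in 19 of the 37 members and all below them in none, against 37.2% and 5.8% of gene ends. Before adjustment, 18 members had a p below 0.05 and a positive difference, and 0 a negative one, against 35.7% and 4.09% of gene ends. The DESeq2 Wald test called 8 higher and 0 lower, against 18.0% and 0.469% of gene ends. Without palmitate 2 the edgeR count was 8 and without palmitate 3 it was 7, and it was 5 with unscaled total counts and 5 when only regions in all 6 peak lists were fitted. The number of all tested regions called higher fell as well, from 2894 to 2066, 2078, 1282 and 1376 in the same settings, in that order.

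**Figure D1:**
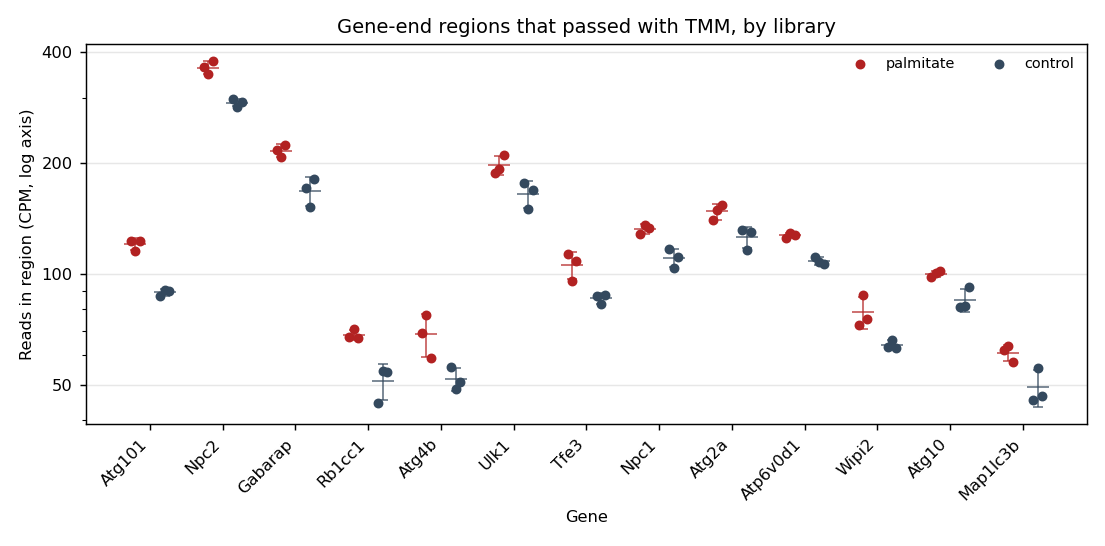
Accessibility of the main region in CPM for each of the 13 called members, on a log axis, with the 3 palmitate libraries left of the 3 control libraries; points are libraries and bars are means ± SD. For each gene the palmitate points lie above the control points, from a mean of 363 CPM against 291 CPM at Npc2 to 61.0 CPM against 49.2 CPM at Map1lc3b. The genes were called on these same values.

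**Figure D2:**
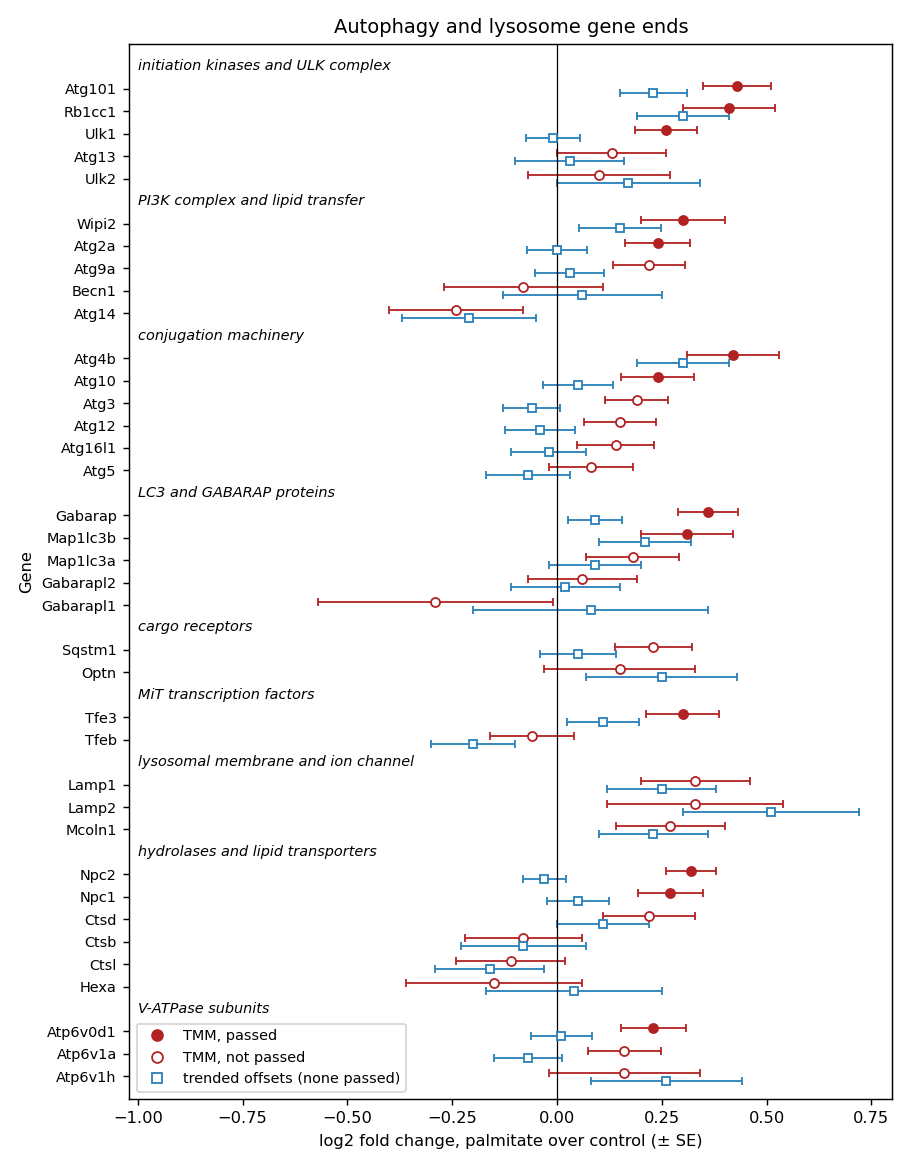
Log2 fold change of palmitate over control (± SE) for the main regions of all 37 members, grouped by role, with TMM scaling and with trended offsets. With TMM scaling the values run from -0.29 to 0.43, and with trended offsets no member passed an adjusted p of 0.05.

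The share of gene ends called higher depended on how strong the region was. The 8737 gene-end regions were therefore divided by mean accessibility into 5 bands of equal size. In the weakest band (mean of 2.96 to 20.9 CPM) 1.72% of gene ends were higher and 6.18% lower, and none of its 4 members (Becn1, Gabarapl1, Lamp2 and Hexa) was either. The second band had 4.18% of gene ends higher and 2.06% lower, and no call among 5 members (Ulk2, Atg14, Optn, Ctsb and Atp6v1h). In the third, where 0.859% of gene ends were lower, 13.0% of gene ends and 3 of 10 members (Rb1cc1, Atg4b and Map1lc3b) were higher. In the fourth, where 0.343% were lower, 38.4% of gene ends and 4 of 10 members (Atg101, Wipi2, Atg10 and Tfe3) were higher. The strongest band (mean of 114 to 862 CPM) had 74.8% of gene ends higher and 0.172% lower, and 6 of 8 members (Ulk1, Atg2a, Gabarap, Npc1, Npc2 and Atp6v0d1). Thus 10 of the 13 called members lay in the 2 strongest bands. The median log2 fold change of the members, from the weakest band to the strongest, was -0.12, 0.10, 0.24, 0.23 and 0.25. That of the gene ends was -0.09, 0.05, 0.13, 0.20 and 0.28.

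Trended offsets remove from each library the smooth trend of its log count on region strength. With them 0 of the 37 members were higher and 0 lower in edgeR, against 2.45% of gene ends higher and 1.28% lower (2.11% and 3.9% of all regions). Before adjustment, Atg101, Rb1cc1, Atg4b and Lamp2 were the 4 members with a p below 0.05, each positive, against 12.4% of gene ends positive and 5.83% negative, so their share was near that of gene ends. The median log2 fold change was 0.05 over members and 0.05 over gene ends. The 13 members called with TMM scaling then had log2 fold changes of -0.03 to 0.30 and adjusted p-values of 0.0752 to 0.994. The signs of Ulk1 and Npc2 turned negative, at -0.01 and -0.03. Without control 2, Lamp2 was called under trended offsets, at a log2 fold change of 0.68 and an edgeR adjusted p of 0.0431. With trended offsets the band medians of the gene ends went from 0.16 in the weakest band to 0.01 in the strongest. What sets the trend on strength was not tested.

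**Figure D3:**
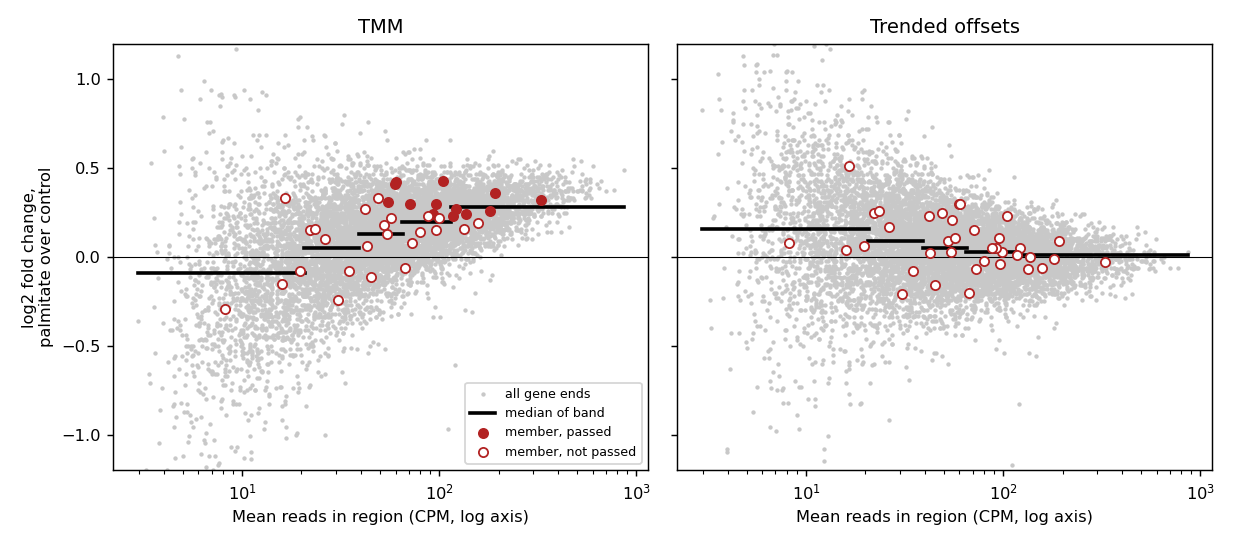
Log2 fold change of palmitate over control against mean accessibility (CPM, log axis) for the gene-end main regions, with the 37 members marked, under TMM scaling and under trended offsets. With TMM scaling the band medians of gene ends climb from -0.09 to 0.28 with strength, and with trended offsets they go from 0.16 to 0.01; 19 and 21 gene ends lie outside the plotted range.

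Of the ULK complex and its kinases, 3 of 5 members were higher, against 26.4% of all gene ends: Atg101, Rb1cc1 and Ulk1. In their strength bands, 38.4%, 13.0% and 74.8% of gene ends were higher. Atg101, a subunit that stabilises ATG13, had 123, 116 and 123 CPM in the palmitate libraries over chr15:101283778-101284395, against 86.7, 90.5 and 89.8 CPM in the controls. Log2 fold changes of palmitate over control are given with their standard error. The means of Atg101 were 120.4 ± 4.23 CPM with palmitate and 89.0 ± 2.01 CPM in control (SD, n = 3 each), a log2 fold change of 0.43 ± 0.081 (adjusted p in edgeR = 0.000244). The controls lay within a few CPM of each other and well under the palmitate values. Rb1cc1, the scaffold FIP200, had 67.4, 70.7 and 66.7 CPM with palmitate over chr1:6214318-6215194 and 44.5, 54.6 and 54.1 CPM in control, with control 1 the lowest (log2 fold change 0.41 ± 0.11, edgeR adjusted p = 0.00565). Ulk1, the kinase that starts autophagy, had 188, 193 and 211 CPM with palmitate over chr5:110809893-110810346 and 177, 149.7 and 168 CPM in control (log2 fold change 0.26 ± 0.073, edgeR adjusted p = 0.00845). The lowest palmitate value was close to the highest control value, and without palmitate 3 the adjusted p of Ulk1 was 0.0784. Ulk2, its paralogue, had 24.4, 32.6 and 24.9 CPM with palmitate and 21.4, 26.6 and 28.2 CPM in control (edgeR adjusted p = 0.704), and its groups overlapped. Atg13, which links ULK1 to FIP200, had 45.7, 62.9 and 60.6 CPM with palmitate and 58.8, 56.9 and 40.8 CPM in control (edgeR adjusted p = 0.516). Its region also serves as that of Harbi1, its neighbour, and the groups overlapped.

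Of the phosphatidylinositol 3-kinase complex and lipid-transfer proteins, 2 of 5 members with a main region were higher (26.4% of gene ends): Atg2a and Wipi2. Gene ends in their strength bands were higher in 74.8% and 38.4%. Atg2a, which moves lipids into the growing membrane, had 139.5, 149 and 154 CPM with palmitate over chr19:6241359-6241986 and 131, 116 and 129.5 CPM in control (log2 fold change 0.24 ± 0.077, edgeR adjusted p = 0.0224). The groups did not overlap but were close. Without palmitate 2, palmitate 3 or control 2 its adjusted p was 0.0657, 0.105 and 0.0861. Wipi2, which binds phosphatidylinositol 3-phosphate and recruits ATG16L1, had 72.5, 87.7 and 75.5 CPM with palmitate over chr5:142629292-142629813 and 63.2, 66.2 and 62.9 CPM in control (log2 fold change 0.30 ± 0.10, edgeR adjusted p = 0.0272). Palmitate 2 was its highest library, and without it the adjusted p was 0.198; without control 1 or control 3 it was 0.0634 and 0.0653. Atg9a, a lipid scramblase carried on vesicles, had 98.9, 116 and 105 CPM with palmitate and 96.7, 88.2 and 90.1 CPM in control over a region also assigned to Ankzf1 (edgeR adjusted p = 0.0538, and 0.0379 without palmitate 1). Its palmitate values lay above its controls, yet it did not pass. Becn1 (beclin 1) and Atg14, subunits of the kinase complex, had log2 fold changes of -0.08 ± 0.19 and -0.24 ± 0.16 (adjusted p in edgeR = 0.796 and 0.28), with overlapping groups.

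In the conjugation machinery, 2 of 6 members with a main region were higher, against 26.4% of all gene ends: Atg4b and Atg10. Gene ends in their strength bands were higher in 13.0% and 38.4%. Atg4b, the protease that trims LC3 and later frees it from the membrane, had 69.0, 77.5 and 59.1 CPM with palmitate over chr1:93754457-93755222 and 55.8, 48.6 and 50.7 CPM in control, a log2 fold change of 0.42 ± 0.11 (adjusted p in edgeR = 0.00676). Its region is shared with Thap4. The palmitate libraries spread more widely than the controls, and without palmitate 2 the adjusted p was 0.0772. Atg10, the E2-like enzyme for ATG12, had 97.8, 101 and 102 CPM with palmitate over chr13:91223695-91224296 and 81.1, 81.5 and 91.8 CPM in control (log2 fold change 0.24 ± 0.087, edgeR adjusted p = 0.0445). Leaving out any library but control 3 took its adjusted p to between 0.0653 and 0.129. Atg3, the E2-like enzyme for LC3, had 169, 176 and 160.3 CPM with palmitate and 149, 135 and 159 CPM in control over a region shared with Slc35a5 (edgeR adjusted p = 0.0588, and 0.0329 without control 3). Its palmitate values lay just above its controls. Atg5, Atg12 and Atg16l1, which form the E3-like complex, had log2 fold changes of 0.08, 0.15 and 0.14 (edgeR adjusted p = 0.621, 0.205 and 0.262).

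Of the 5 LC3 and GABARAP genes, Gabarap and Map1lc3b were higher, against 26.4% of all gene ends. Gene ends in their strength bands were higher in 74.8% and 13.0%. Gabarap had 217, 207 and 224 CPM with palmitate and 171, 151 and 181 CPM in control over chr11:69995431-69995866 (means 216 ± 8.39 and 168 ± 15.0 CPM, SD, n = 3 each, log2 fold change 0.36 ± 0.072, edgeR adjusted p = 0.000399). This region lies 482 bp beyond the far end of Gabarap and is the main region of the neighbouring gene Phf23. The region at the start of Gabarap itself (chr11:69991425-69991654) had 28.8, 41.1 and 27.2 CPM with palmitate and 24.8, 26.6 and 33.3 CPM in control, a log2 fold change of 0.20 (edgeR adjusted p = 0.415). So the call for Gabarap rests on a region that the rule assigns to it, not on the one at its start. Map1lc3b, whose product LC3B is the usual marker of autophagosomes, had 61.9, 63.5 and 57.5 CPM with palmitate over chr8:121590262-121590767 and 45.3, 55.6 and 46.6 CPM in control (log2 fold change 0.31 ± 0.11, edgeR adjusted p = 0.0466). Its groups did not overlap, but leaving out any library other than control 2 took the adjusted p to between 0.0627 and 0.146. Map1lc3a and Gabarapl2 had log2 fold changes of 0.18 and 0.06 (edgeR adjusted p = 0.262 and 0.754). Gabarapl1 had the weakest main region per length of all members, at 13.5 CPM per kb, with 5.91, 8.49 and 7.67 CPM in the palmitate libraries and 8.28, 9.32 and 9.52 CPM in the controls (edgeR adjusted p = 0.473).

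Neither cargo receptor passed. Sqstm1, which encodes the receptor p62, had 94.2, 100.2 and 91.3 CPM with palmitate over chr11:50210108-50211079 and 80.2, 88.8 and 74.1 CPM in control, a log2 fold change of 0.23 ± 0.091 (adjusted p in edgeR = 0.0577). Its palmitate values were all above its controls, and without control 2 the adjusted p was 0.015. Optn (optineurin), a receptor for bacteria and mitochondria, had a log2 fold change of 0.15 (edgeR adjusted p = 0.591).

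The genes of the transcription factors differed in their calls, a difference between the genes that was not itself tested. Tfe3 was higher, with 113, 95.8 and 109 CPM in the palmitate libraries over chrX:7762407-7762871 and 87.2, 82.5 and 87.4 CPM in the controls (means 106 ± 8.97 and 85.7 ± 2.74 CPM, SD, n = 3 each, log2 fold change 0.30 ± 0.087, edgeR adjusted p = 0.011). The groups did not overlap, and without palmitate 1 or palmitate 3 the adjusted p was 0.0631 and 0.052. The strength band of Tfe3 had 38.4% of gene ends higher. At the start of Tfeb (chr17:47736914-47737404) the palmitate libraries had 65.8, 69.7 and 62.5 CPM and the controls 60.1, 70.9 and 74.8 CPM (log2 fold change -0.06 ± 0.10, edgeR adjusted p = 0.696). These groups overlapped.

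None of the 3 genes of the lysosomal membrane passed, although their median log2 fold change, 0.33, was the highest of the 9 role groups. Lamp1, a main glycoprotein of that membrane and a surface mark of degranulating CD8+ T cells, had 55.2, 48.3 and 61.4 CPM with palmitate over chr8:13158907-13159310 and 37.0, 45.9 and 46.9 CPM in control, a log2 fold change of 0.33 ± 0.13 (adjusted p in edgeR = 0.053). Its palmitate values lay above its controls, with palmitate 2 close to control 3, and without palmitate 2, control 2 or control 3 the adjusted p was 0.0299, 0.0408 and 0.0463. Lamp2 had 17.7, 19.4 and 18.0 CPM with palmitate and 13.9, 18.0 and 11.9 CPM in control (log2 fold change 0.33 ± 0.21, edgeR adjusted p = 0.267). Mcoln1, the lysosomal calcium channel TRPML1, had 48.9, 43.8 and 45.6 CPM with palmitate and 38.8, 37.9 and 38.1 CPM in control (log2 fold change 0.27 ± 0.13, edgeR adjusted p = 0.117). In Mcoln1 the groups did not overlap, while in Lamp2 control 2 reached into the palmitate values.

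Among hydrolases and lipid transporters, 2 of 6 members were higher (26.4% of all gene ends), and both carry cholesterol out of the lysosome. Both lay in the strongest band, where 74.8% of gene ends were higher, with a median log2 fold change of 0.28. Npc2, the soluble cholesterol carrier, had the strongest main region of all members, at 560 CPM per kb. It had 363, 348 and 377 CPM with palmitate over chr12:84772870-84773454 and 297, 284 and 292 CPM in control (means 363 ± 14.7 and 291 ± 6.59 CPM, SD, n = 3 each, log2 fold change 0.32 ± 0.059, edgeR adjusted p = 0.000246). Npc1, its partner in the membrane, had 128, 136 and 133 CPM with palmitate over chr18:12236138-12236914 and 117, 104 and 111 CPM in control (log2 fold change 0.27 ± 0.078, edgeR adjusted p = 0.0121). In both genes the lowest palmitate library stood clear of the highest control, though the Npc2 region is shared with Isca2. Ctsd, the aspartic protease cathepsin D, had 63.5, 61.5 and 57.5 CPM with palmitate over chr7:142387650-142388211 and 60.1, 48.9 and 49.3 CPM in control (log2 fold change 0.22 ± 0.11, edgeR adjusted p = 0.163). All its palmitate libraries but the third lay above the highest control. Ctsb, Ctsl (cathepsins B and L) and Hexa, a subunit of beta-hexosaminidase, had log2 fold changes of -0.08, -0.11 and -0.15 (edgeR adjusted p = 0.724, 0.569 and 0.653).

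Of the 3 V-ATPase subunits, Atp6v0d1, in the membrane sector, was higher, against 26.4% of all gene ends. Its strength band had 74.8% of gene ends higher, with a median log2 fold change of 0.28. The region of Atp6v0d1 was thus not set apart from gene ends of like strength. It had 125, 129 and 127 CPM with palmitate over chr8:105565765-105566438, a region shared with Agrp, and 111, 108 and 106 CPM in control (log2 fold change 0.23 ± 0.077, edgeR adjusted p = 0.0259). The libraries of each group were within a few CPM of each other. Without palmitate 2, palmitate 3 or control 3 the adjusted p was 0.0783, 0.0715 and 0.0648. Atp6v1a and Atp6v1h, of the catalytic sector outside the membrane, had log2 fold changes of 0.16 and 0.16 (edgeR adjusted p = 0.177 and 0.54). The DESeq2 Wald test gave adjusted p-values of 0.0718 for Atg2a, 0.082 for Atp6v0d1, 0.0951 for Wipi2, 0.131 for Atg10 and 0.13 for Map1lc3b. Atg101, Npc2, Gabarap, Rb1cc1 and Npc1 were the 5 called members that passed in edgeR with each library left out in turn.

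Inside the member genes, the regions that passed were all lower with palmitate. Beyond 1 kb from both gene ends, 17 regions inside 9 members were tested, and 7 were lower with palmitate and 0 higher (41.2% lower), against 19.6% lower and 4.3% higher of 8694 regions inside protein-coding genes. The 8694 lie over 1 kb from the ends of every protein-coding gene, the 17 only from those of their own gene. Before adjustment, 8 of the 17 had a p below 0.05 and a negative difference and 1 a positive one, against 29.6% and 7.0% of regions inside genes. The median log2 fold change was -0.56 over these 17 regions and -0.24 over regions inside genes (mean accessibility, medians of 14.0 and 13.1 CPM). The 6 further gene-end regions of members had no call in either direction by edgeR, at an unadjusted p below 0.05 or by DESeq2. Whether the inner regions lie in exons or introns is not given here.

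The inner region of Ctsb (chr14:63132131-63132655), 9669 bp from the nearer gene end, had 5.52, 7.14 and 7.67 CPM with palmitate and 21.8, 19.6 and 22.1 CPM in control, with means of 6.77 ± 1.12 and 21.2 ± 1.34 CPM (SD, n = 3 each). The groups were far apart, at a log2 fold change of -1.63 ± 0.24 (adjusted p in edgeR = 1.29e-05). It stayed lower with trended offsets, at -1.37 ± 0.24 (edgeR adjusted p = 0.000588), and under trended offsets with each library left out its adjusted p was at most 0.0127. The authors' peak calling listed it in 2 of 3 palmitate libraries and in all 3 controls. In the same gene the main region, at a gene end, had a log2 fold change of -0.08, given above. The inner region of Tfeb (chr17:47739340-47739722), 2303 bp from the gene end, had 15.8, 18.4 and 18.0 CPM with palmitate and 25.3, 30.6 and 33.0 CPM in control (log2 fold change -0.77 ± 0.18, edgeR adjusted p = 0.00169). With trended offsets its log2 fold change was -0.67 ± 0.18 (edgeR adjusted p = 0.0201), and leaving out palmitate 1, palmitate 3 or control 3 there gave 0.0756, 0.0659 and 0.14. It was listed as a peak in 0 of 3 palmitate libraries and in all 3 controls. The peak lists of the palmitate libraries were shorter as a whole, with 20201 to 21502 peaks against 22359 to 27122 in the controls. The inner regions of Ctsb and Tfeb were the 2 called with trended offsets, against 5.66% of regions inside genes called lower and 1.93% higher.

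The other 5 called inner regions did not pass with trended offsets. Without control 2, 4 of them did, with adjusted p-values in edgeR of 0.0265 (Atg10), 0.0316 and 0.0362 (Atg7) and 0.00851 (Npc2), and without palmitate 3 that of Atg10 was 0.0455. Atg10 (chr13:91206295-91206518) had 1.97, 2.38 and 4.60 CPM with palmitate and 10.5, 7.65 and 10.5 CPM in control, a log2 fold change of -1.66 ± 0.35 (adjusted p in edgeR = 0.000871, and 0.0602 with trended offsets). Its own main region was higher with palmitate, so the start and this inner region of Atg10 were called in opposite directions with TMM scaling. With trended offsets the main region had a log2 fold change of 0.05 (edgeR adjusted p = 0.788), and neither was called. The other inner regions of Atg10 were not called with TMM scaling (edgeR adjusted p = 0.067 to 0.975). Atg7, the E1-like enzyme of conjugation, had a pair of lower inner regions. At chr6:114680895-114681287 it had 13.0, 10.9 and 11.9 CPM with palmitate and 23.1, 17.0 and 20.7 CPM in control (log2 fold change -0.76 ± 0.21, edgeR adjusted p = 0.0095). At chr6:114842913-114843139 it had 2.37, 2.72 and 1.92 CPM with palmitate and 9.59, 4.99 and 8.84 CPM in control (log2 fold change -1.69 ± 0.38, edgeR adjusted p = 0.0016). In both the palmitate libraries lay below all controls, in the second at very low levels. Npc2 was also called in opposite directions with TMM scaling, with 17.3, 24.5 and 21.9 CPM with palmitate and 40.5, 24.95 and 31.3 CPM in control inside the gene (chr12:84764719-84765032, log2 fold change -0.58 ± 0.18, edgeR adjusted p = 0.0194). Without palmitate 1, palmitate 3, control 1 or control 3 its adjusted p was 0.11, 0.0582, 0.157 and 0.0603. With trended offsets neither Npc2 region was called, at -0.03 for the main region and -0.51 for the inner one (edgeR adjusted p = 0.822 and 0.0953). A stronger inner region of Npc2 (chr12:84762554-84762897) had a log2 fold change of 0.02 with TMM scaling (edgeR adjusted p = 0.931). The Atg13 region (chr2:91696280-91696685) had overlapping groups, 6.31, 5.10 and 1.53 CPM with palmitate and 9.59, 5.99 and 10.2 CPM in control (edgeR adjusted p = 0.0464). Its adjusted p without palmitate 2, palmitate 3, control 1 or control 3 was 0.0685, 0.279, 0.104 and 0.202. Pik3c3, which encodes the kinase VPS34, had 1 inner region (chr18:30272684-30273095), with 60.7, 56.7 and 56.0 CPM in the palmitate libraries and 42.7, 46.9 and 52.0 CPM in the controls. All its palmitate values lay above its controls (log2 fold change 0.28 ± 0.11, edgeR adjusted p = 0.0683). DESeq2 called 4 of the 17 inner regions lower and 0 higher, against 8.25% and 2.47% of regions inside genes.

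**Figure D4:**
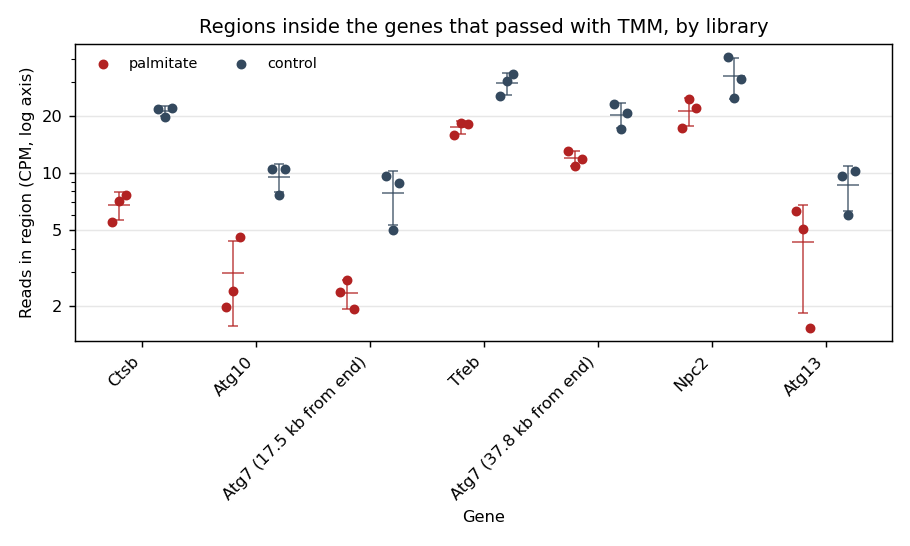
Accessibility (CPM, log axis) of the 7 inner regions called lower, with the 3 palmitate libraries left of the 3 control libraries of each region; points are libraries and bars are means ± SD. Only in the Atg13 region do the groups overlap, and at Ctsb they stand well apart, with means of 6.77 CPM with palmitate and 21.2 CPM in control.

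Of 116 further genes of autophagy and the lysosome, a main region was found for 99. Of these, 29 were higher and 0 lower (29.3%, against the 26.4% and 1.92% of gene ends). The median log2 fold change of the 99 was 0.14, against 0.15 over gene ends. Before adjustment, 36 had a p below 0.05 and a positive difference and 2 a negative one, against 35.7% and 4.09% of gene ends. DESeq2 called 20 higher and 0 lower, against 18.0% and 0.469% of gene ends, and these shares are near those of gene ends. By role, 5 of 12 initiation genes, 2 of 3 conjugation genes, 3 of 12 fusion genes, 4 of 8 receptors, 3 of 30 hydrolases and cofactors, 2 of 7 lysosomal membrane genes, 5 of 14 V-ATPase genes and 5 of 13 genes of nutrient sensing and TFEB control were higher. By strength, 0 of 17, 0 of 16, 5 of 24, 13 of 29 and 11 of 13 were higher from the weakest band to the strongest. Of all gene ends in the same bands, 1.72%, 4.18%, 13.0%, 38.4% and 74.8% were higher. The smallest p-values belonged to Wipi1, Rragc, Nbr1, Tmem192 and Laptm4a. Wipi1, a relative of Wipi2, had 392, 434 and 386 CPM with palmitate and 305, 276 and 296 CPM in control (log2 fold change 0.47 ± 0.062, edgeR adjusted p = 4.19e-06). Its groups were well apart. Nbr1, a cargo receptor like p62, Tmem192 and Laptm4a, both of the lysosomal membrane, had log2 fold changes of 0.34, 0.37 and 0.32 (edgeR adjusted p = 0.000493, 0.000637 and 0.0014). The 5 smallest p-values among genes with lower values, none of them called, belonged to Arsb, Pla2g15, Ambra1, Atg9b and Gusb, with log2 fold changes of -0.32, -0.28, -0.29, -0.35 and -0.32 (edgeR adjusted p = 0.0886, 0.116, 0.172, 0.191 and 0.279).

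With trended offsets 2 of these 99 genes were called higher, Rragc and Rab7, and 0 lower, a share near the 2.45% of gene ends called higher. Rragc, a Rag GTPase that brings mTORC1 to the lysosome, had 148, 148 and 146 CPM with palmitate over chr4:123917115-123917651 and 109, 103 and 109 CPM in control. Its log2 fold change was 0.46 ± 0.075 (adjusted p in edgeR = 5.31e-05) with TMM scaling and 0.23 ± 0.071 (edgeR adjusted p = 0.0446) with trended offsets. Rab7, the GTPase of late endosomes that acts in fusion with lysosomes, had 67.8, 77.1 and 77.1 CPM with palmitate over chr6:88044986-88045561 and 55.8, 55.2 and 51.0 CPM in control. Its log2 fold change was 0.46 ± 0.10 (adjusted p in edgeR = 0.00151) with TMM scaling and 0.33 ± 0.10 (edgeR adjusted p = 0.0484) with trended offsets. Both genes had groups well apart. With a library left out, trended offsets gave Rragc an adjusted p of 0.0641 to 0.139, and gave Rab7 one of 0.0393 without control 2 and of 0.0514 to 0.214 without any of the others.

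For 27 of the 37 members the RefSeq start window, of 250 bases before and 50 after the start, overlapped the main region. CACGTG, searched on both strands, stood in 9 of these 27 windows (33.3%), against 818 of 7091 windows over gene-end main regions (11.5%) and 7.15% of all 32851 windows. The 9 were those of Atg14, Atg3, Atg5, Lamp1, Mcoln1, Ctsd, Ctsl, Atp6v0d1 and Atp6v1a. Of the 9 members with the letters, 1 was higher with palmitate, and of the 18 without them 9 were, with median log2 fold changes of 0.19 and 0.24. Over all 7091 gene-end windows, 32.3% of genes with the letters and 29.3% of those without them were higher, with medians of 0.18 and 0.16. The difference among members thus ran the other way from that over gene ends, on few genes, and was not tested. The longer TCACGTGA, which contains CACGTG, stood in 5 member windows (18.5%) and in 2.45% of gene-end windows. The same letters with a G before and a C after them stood in 0 of the 27 member windows and in 0.931% of gene-end windows. GGGCGG, the letters of Sp-family sites, stood in 70.4% of member windows and 72.1% of gene-end windows, and CCGGAAGT in 7.41% and 10.5%. These matches describe the letters in the windows and not the binding of a factor.

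Summed over the 37 main regions, the members held 0.303% to 0.309% of all counts in the palmitate libraries and 0.279% to 0.285% in the controls. The 17 inner regions together held 242 to 248 CPM in the palmitate libraries and 308 to 322 CPM in the controls. Neither pair of ranges overlapped, but no such sums were made for other gene ends or other regions inside genes. In the strongest band, 74.8% of all gene ends were higher, with a median log2 fold change of 0.28 against 0.25 for its members. Of regions inside protein-coding genes, 19.6% were lower and 4.3% higher. The sums are thus not shown to be particular to the members.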

How the data were processed

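Per the submitters' processing notes, the build was mm10 and the tools were MACS2 2.2.8, Bowtie2 2.5.1, edgeR 3.40.2, Picard 2.23.8 and Trim Galore 0.6.10. How reads were shifted, peaks merged and regions counted is not stated there. The deposited matrix holds the authors' raw counts for 6 libraries in 24605 regions, with no normalization, and each deposited peak list holds 1 library's filtered peaks with the authors' score. Peak lists were used here only for the presence of a peak (overlap of at least 1 bp). Differences were tested two-sided with edgeR 4.0.16 (R 4.3.3): TMM factors, filterByExpr (289 regions removed), quasi-likelihood F-test, Benjamini-Hochberg adjustment over all tested regions at 0.05. A standard error is the size of the log2 fold change over the root of its F statistic. Depth was 2219136 to 3089230 counts per library, which limits the precision of weak regions. The common biological coefficient of variation was 0.0659. Trended offsets came from a loess curve (span 0.3, pseudocount 0.5 reads). Alternatives were other scalings and filters, DESeq2 1.42.0, limma-voom (limma 3.58.1), a replicate block, gene ends within 2.5 kb, the nearest region, regions in all 6 lists, a rate of 0.1 and each library left out. The edgeR step was tested on simulated data that held no trend on region strength, so that test does not bear on the trend found here. Gene ends came from a RefSeq table used without strand. All members are named, with full values for called members and for Tfeb, Tfe3, Sqstm1, Map1lc3b, Lamp1 and Ctsd, and the others by level, fold change or range. Of the other genes, those called with trended offsets and the 5 smallest p in each direction are named. The rule for members' regions uses no difference between groups, but the members, lists, tests and most alternatives were chosen with earlier results of these data known.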

Additional observations from a re-analysis of the deposited data

How the results depend on the processing

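The count of members higher (13) was 0 with trended offsets, 5 with total counts, 8 with the DESeq2 Wald test, 8 with upper-quartile factors and 5 in regions of all 6 peak lists. It was 17 with DESeq2 size factors, 14 with no count filter, 9 with at least 20 reads in 3 libraries and 11 with limma-voom. At a rate of 0.1 it was 17, within 2.5 kb 13 and with the nearest region 12. For these last 3 settings the count over all gene ends is not given here. Leaving out each library gave 7 to 13, and 0 to 1 with trended offsets, settings chosen after seeing the data. No alternative called a member lower. Of all tested regions, 2894 were higher in the main fit and 514 with trended offsets. Total counts gave 1282, the DESeq2 Wald test 1888, upper-quartile factors 1993 and DESeq2 size factors 3310. No count filter gave 2964, at least 20 reads in 3 libraries 2359 and limma-voom 2803. Regions in all 6 lists gave 1376 of 14761, and leaving out each library 2066 to 2774. The count of other genes higher (29) was 11 with total counts and 2 with trended offsets, 21 to 28 with a library left out, and 0 to 3 with trended offsets and a library left out. Total counts called 2 of them lower. Under them the all-region median is -0.16 on the log2 scale, against -0.05 with TMM. The inner regions lower (7) were 2 with trended offsets, 4 with the DESeq2 Wald test, 5 to 7 with a library left out, and 1 to 6 with trended offsets and a library left out (6 without control 2). An inner region was called higher (1) with DESeq2 size factors, and 0 to 1 with a library left out. Causes were not tested, beyond the fewer regions or libraries that some settings use.

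Signs turned with trended offsets at Ulk1 (-0.01), Becn1 (0.06), Atg3 (-0.06), Atg5 (-0.07), Atg12 (-0.04), Atg16l1 (-0.02), Gabarapl1 (0.08), Hexa (0.04), Npc2 (-0.03) and Atp6v1a (-0.07). They turned with total counts at Ulk2 (-0.01), Atg5 (-0.04) and Gabarapl2 (-0.05), and in regions of all 6 lists at Atg5 (-0.01) and Gabarapl2 (-0.02). With each library left out, values ranged from -0.05 to 0.21 at Ulk2, -0.02 to 0.19 at Atg5 and -0.00157 to 0.12 at Gabarapl2 (all lowest without palmitate 2), and from -0.01 to 0.26 at Atg13, -0.17 to 0.01 at Becn1 and -0.14 to 0.03 at Tfeb (each turned without control 3). Of 590 values of members under alternatives, 490 kept direction and call, 68 lost and 11 gained a call, and 21 turned sign. Of the 208 values that belong to called members, 138 kept direction and call, 68 lost the call and 2 turned sign.

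Deviations from the group mean, in libraries with the same replicate number, correlated at 0.000431, -0.105 and -0.0269 over regions. For libraries with different numbers the values were -0.0685 to 0.0932. Deviations within a group sum to 0, so these values cannot settle whether the numbers pair the libraries. With the number as a replicate block, 11 members, 29 other genes and 6 inner regions (lower) were called. Of all 24316 tested regions, 2712 were then higher and 2821 lower. With trended offsets and the block the counts were 0, 0 and 2, against 428 regions higher and 857 lower.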
